A study of Mus musculus with 36 samples.

Results

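A group of 35 genes that mark macrophages and other leukocytes was followed through 12 stages of the mouse heart. Its members were chosen by name: every row of the annotated expression table that carried one of the 35 symbols was taken, and each gene was read from its probe set with the highest mean over the 36 arrays. The 35 genes are part of 20701 genes with an ID on the array, and they account for 70 of its 45101 probe sets. A single probe set was present for 21 members and several for 14, with 11 for Ighm. Hearts came from OF1 mice, an outbred stock, taken daily over E10.5 to E19.5, from young adults of 10 weeks and from old adults, for which the series design gives 14 months and the methods of the study a younger age. No genotype or treatment separated the groups, and each stage had 3 arrays. At E10.5 and E11.5 all 3 samples pooled both sexes, and each later stage had a female, a male and a mixed sample. The methods describe the 3 as separate biological samples, with hearts of both sexes combined in the mixed ones, and their number limits the precision of every stage mean.

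Macrophages take up dead cells and debris, and they settle in the embryonic heart before birth and persist there in the adult. Their identity depends on the transcription factor encoded by Spi1 and on the growth factor receptor encoded by Csf1r, and they carry scavenger receptors, Fc receptors and a large lysosome. Other members are shared by all white blood cells, such as Ptprc, or belong mainly to neutrophils, as the calprotectin subunits S100a8 and S100a9 do, or to B cells. The samples were heart tissue and not sorted cells, so fewer cells of a type and less RNA per cell cannot be told apart in any value below, and the methods mention no flushing of blood.

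Levels are log2 intensities, so that a difference of 1 is a 2-fold difference, and the study took a stage mean above 5 as the limit of expression. Array medians lay between 4.002 and 4.20. Where a stage mean lay under these medians, the size of a difference from it is uncertain. This held at E10.5 for Tyrobp, Ctss, Mrc1, Cybb, Ptprc and S100a9, among others. The extraction label names liver, while the tissue label and the methods name heart: all 9 cardiomyocyte genes examined had a stage mean above 5, and of 7 liver genes only Ahsg did, at 5.03. The 18 hybridization control probe sets averaged from 9.68 on an E10.5 array to 12.43 on a young adult array, and the old adult arrays lay at 11.16 to 11.56. Since these controls differed with stage, another scaling was tried. When each array was centred on its expressed probe sets, the median difference between young adult and E10.5 hearts over all genes moved from 0.21 to 0.74 and that over the members from 1.98 to 2.51. The part of the control levels in the differences given here was not tested beyond the alternatives at the end.

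Leukocyte genes were low in the early heart and highest in the adult. Of the 35 members, 28 had a mean above 5 at some stage, 14 at an embryonic stage, 3 on E10.5, 13 on the last embryonic day, 20 in young adults and all of the 28 in old adults. The highest of the 12 stage means was an adult one for 30 members. The exceptions were Cx3cr1, with its peak at E14.5, Itgax at E17.5, and S100a8, S100a9 and Ighm at E19.5. Only Lyz1 and Fcgr2b stayed above 5 at all 12 stages. The 3 young adult arrays lay above all 30 embryonic arrays for 21 of the 35 members and for 7.82% of all genes.

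**Figure D1:**
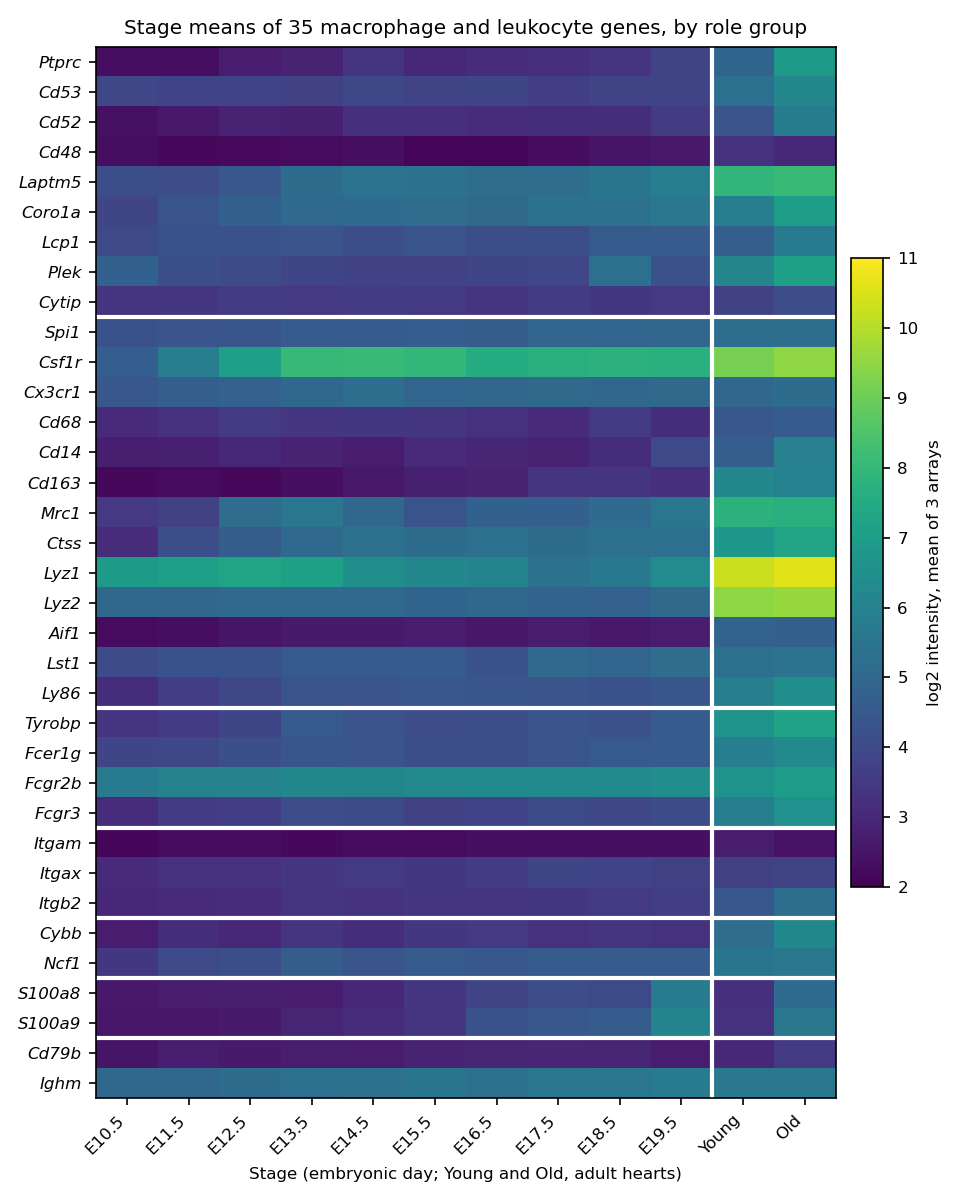
Stage means of the 35 members, in log2 intensity as colour, with the 12 stages from left to right and the members in rows by role group, from leukocyte membrane genes at the top to the B cell receptor at the bottom. White lines part the role groups and the adult stages. Csf1r is bright from E12.5 on, Lyz1 and Lyz2 reach 10.28 and 9.46 in young adults, and S100a8 and S100a9 have a peak at E19.5.

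Young adult hearts were compared with every embryonic stage in limma, with 2 rules. The strict rule, that of the study, asks for an adjusted p under 1e-05, a log2 difference above 2 and a stage mean above 5. That mean can come from any stage of the series, including stages outside the comparison. The lenient rule asks for an adjusted p under 0.05. Against E10.5, 15 of 35 members passed the strict rule as higher in young adults, beside 2.64% of all genes, and 0 passed as lower, beside 5.14%. By the lenient rule 32 were higher, beside 38.6% of all genes, and the other 3, S100a8, S100a9 and Cytip, had differences of 0.57, 0.78 and 0.37. The median difference of the members was 1.98 and that of all genes 0.21. Among the 15 strict calls, Ptprc met the limit of 5 only in old adults (6.89). Its compared means were 2.32 at E10.5 and 4.89 in young adults, both below that limit.

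Fewer members passed the strict rule at later embryonic stages. The count was 12 for E11.5 (2.33% of all genes), 11 for E12.5 (2.20%), 7 for E13.5 (2.12%), 9 for E14.5 (1.97%) and 8 for E15.5 (1.97%). Later it was 7 for E16.5 (1.55%), 6 for E17.5 (1.49%), 6 for E18.5 (1.25%) and 6 for E19.5 (0.787%). The same 6 genes made up the last 3 counts: Laptm5, Cd163, Mrc1, Lyz1, Lyz2 and Tyrobp, which were also called at every earlier stage. The other probe sets of Laptm5 and Lyz1 did not pass the strict rule at E19.5, and the remaining 4 genes had no other. These comparisons share the young adult arrays, so they do not stand apart from one another. From E19.5 to young adult 23 members were higher by the lenient rule, beside 14.7% of all genes, and 2 were lower, beside 17.0%, namely S100a8 and S100a9. The strict call of Mrc1 at E19.5 was lost whichever of the 6 arrays of these stages was left out. Without the E19.5 mixed sample 3 members were called, Cd163, Lyz1 and Lyz2.

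**Figure D2:**
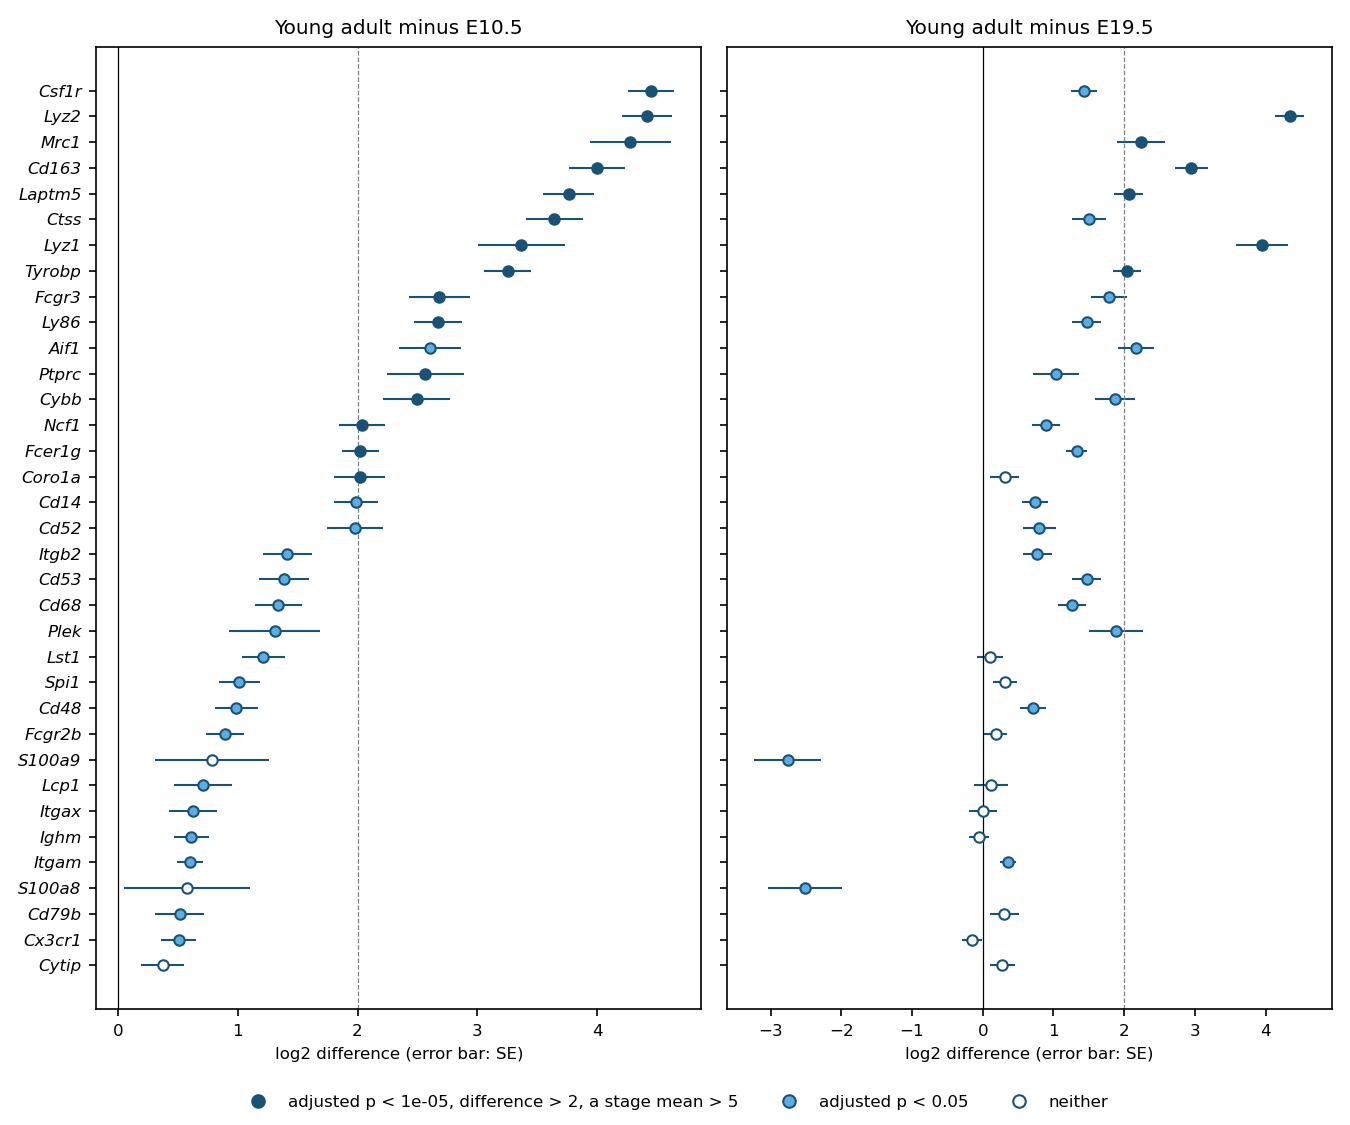
Log2 difference of young adult minus E10.5 hearts (left) and of young adult minus E19.5 hearts (right) for the 35 members, ordered by the first, with standard errors from limma as bars. Dark points pass the strict rule, light points the lenient rule and open points neither. Csf1r moves from 4.45 on the left to 1.43 on the right, whereas Lyz2 keeps 4.42 and 4.34, and the calprotectin genes lie at -2.51 and -2.76 on the right.

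Macrophage genes were higher in the adult than at both ends of the embryonic series. Of 13 genes for macrophage identity, scavenging and lysosome, 13 were higher in young adults than at E10.5 by the lenient rule (38.6% of all genes). By the strict rule 7 were (2.64%), and the median difference was 2.67. Against E19.5, 10 were higher by the lenient rule (14.7% of all genes), with a median of 1.47. The same shares stand beside the counts of the other role groups in these comparisons. Their courses in the embryo differed: Csf1r and Ctss rose early, Mrc1 rose in 2 separate windows, and Lyz2 stayed within a narrow range on all embryonic days.

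Csf1r encodes the receptor for colony stimulating factor 1, on which most macrophages depend. It measured 4.39, 4.61 and 5.09 on the 3 arrays of E10.5 and 5.69, 5.88 and 5.96 on those of E11.5. At E12.5 it measured 7.14 in the female, 7.03 in the male and 7.06 in the mixed sample. None of these 3 days overlapped with another. By E13.5 the level was 8.04 ± 0.38 (SD, n = 3), and it then stayed between 7.58 and 8.05 until E19.5. The young adult samples measured 8.97 (male), 9.21 (mixed) and 9.25 (female), above every embryonic array. The step from E10.5 to E11.5 was 1.15 (limma, adjusted p = 0.000715), and that from E10.5 to young adult was 4.45 (SE 0.19, adjusted p = 1.29e-18). The other probe sets of Csf1r gave 2.89 (adjusted p = 1.27e-15) and 1.16 (adjusted p = 2.17e-05) for the latter, so the size of the rise depended on the probe set. From E19.5 to young adult they gave 2.09, which passes the strict rule, and 0.52 (adjusted p = 0.061), beside 1.43 for the chosen one.

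Cathepsin S, the lysosomal protease encoded by Ctss that trims the invariant chain of MHC class II, rose over the same days. Its 3 arrays read 3.29, 3.35 and 2.82 at E10.5 and 4.30, 3.81 and 4.35 at E11.5, with no overlap. From E14.5 (5.34 ± 0.14) to E19.5 (5.29 ± 0.16) the mean hardly moved. Young adults reached 6.80 ± 0.48, a difference of 3.64 from E10.5 (SE 0.24, adjusted p = 3.79e-14) and of 1.50 from E19.5 (SE 0.24, adjusted p = 9.35e-06).

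The mannose receptor gene Mrc1, a mark of tissue macrophages that also occurs on some endothelia, had a different course. It averaged 3.50 ± 0.34 on E10.5 and 5.54 ± 0.13 on E13.5, then 4.35 ± 0.74 on E15.5 and 5.54 ± 0.57 on E19.5. The E15.5 value leaned on the male sample, at 3.50 beside 4.69 (female) and 4.86 (mixed). It rose by 1.72 from E10.5 to E12.5 (adjusted p = 0.0021) and again by 1.19 from E15.5 to E19.5 (adjusted p = 0.021). Young adults measured 7.43 (male), 7.71 (mixed) and 8.19 (female), 4.28 above E10.5 (SE 0.34, adjusted p = 3.72e-12). Cd163, the scavenger receptor for haemoglobin bound to haptoglobin, never exceeded a mean of 3.36 before birth and reached 6.18 ± 0.31 in young adults. It was higher than on E10.5 (adjusted p = 3.08e-15) and by 2.95 higher than on E19.5 (SE 0.24, adjusted p = 2.20e-11). Its embryonic means lay under the array medians, so the size of these differences is uncertain and no fold is given.

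Lyz1 and Lyz2 encode near-identical lysozymes, enzymes that digest bacteria, and their probe sets could share signal. Lyz2 lay between 4.85 and 5.12 at all 10 embryonic stages and measured 9.22 (male), 9.51 (mixed) and 9.64 (female) in young adults. The gap to E19.5 was 4.34 (SE 0.21, adjusted p = 1.91e-16), or 20.3-fold, with no array in between. By its chosen probe set, of a type that can take up signal from related genes, Lyz1 had signal already at E10.5 (6.95, 7.39 and 6.40). It fell by 1.09 from E12.5 to E15.5 (SE 0.36, adjusted p = 0.0304), beside 12.8% of all genes that were lower over that window, and it was the 1 member to do so. Its lowest embryonic mean was 5.39 ± 0.84 at E17.5, where the mixed sample read 4.42 and the other two 5.80 and 5.94. In young adults it measured 10.01, 10.31 and 10.52, a rise of 3.95 over E19.5 (SE 0.36, adjusted p = 4.70e-10). The other Lyz1 probe set did not show this: it read 1.99 on E10.5, 2.28 on E19.5 and 2.53 in the young adult, below the expression limit, and its difference of 0.24 from E19.5 did not pass (adjusted p = 0.154).

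**Figure D3:**
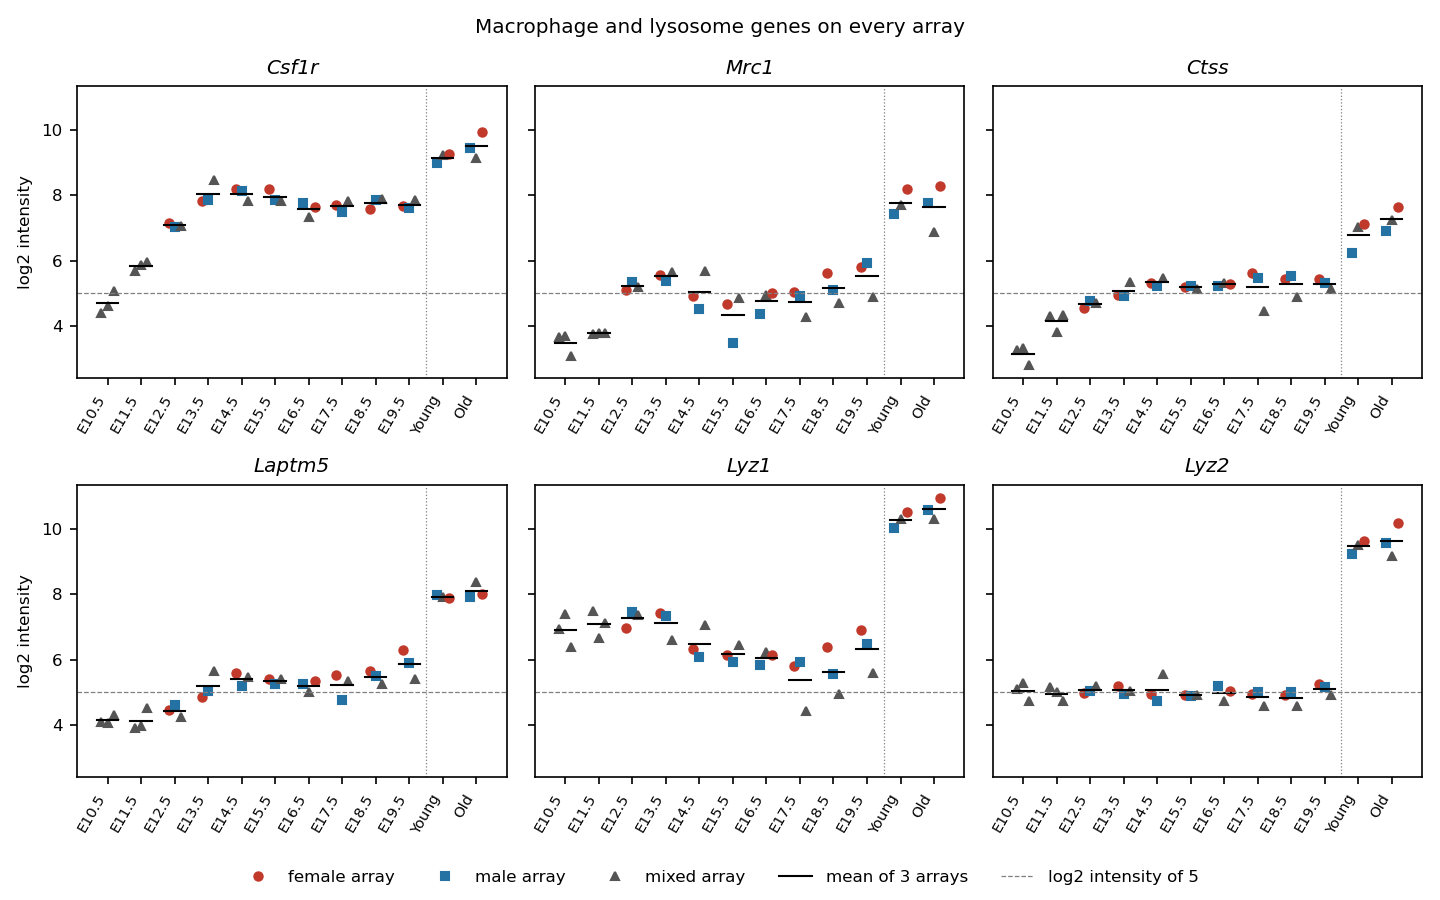
Log2 intensity of Csf1r, Mrc1, Ctss, Laptm5, Lyz1 and Lyz2 on each of the 36 arrays by stage, with the sex label as the symbol and the mean of 3 arrays as a bar. The dashed line marks the expression limit of 5 and the dotted line parts embryonic from adult hearts. Csf1r climbs from 4.70 to 8.04 between E10.5 and E13.5, and Lyz2 stays near the dashed line until the adult stages.

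The promoters of the 2 lysozyme genes, taken from RefSeq on build GRCm38.p6, are shown because the genes are near-identical copies that both passed the strict rule. Each line gives the last 120 bases before the transcription start on the minus strand of chromosome 10, chr10:117292869-117292988 for Lyz1 and chr10:117282273-117282392 for Lyz2, with the 9 bases that differ in capitals.
Lyz1: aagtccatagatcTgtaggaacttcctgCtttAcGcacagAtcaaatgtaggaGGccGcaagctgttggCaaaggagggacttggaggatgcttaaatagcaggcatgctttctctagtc
Lyz2: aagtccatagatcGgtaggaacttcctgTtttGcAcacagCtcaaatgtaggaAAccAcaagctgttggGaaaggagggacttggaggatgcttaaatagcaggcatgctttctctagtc
These stretches were identical at 111 of 120 positions, or 92.5%. Over the 250 bases before the start, compared without gaps, the identity was 60.8%. The pair was picked for display after its values were seen, and nothing about its control was tested.

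Ly86, which encodes a partner of a Toll-like receptor homologue on myeloid and B cells, went from 3.19 ± 0.35 at E10.5 to 5.87 ± 0.13 in young adults. Cd14, the co-receptor for bacterial lipopolysaccharide, stayed at 2.71 to 3.17 until E18.5, reached 3.99 ± 0.28 at E19.5 and measured 4.73 ± 0.39 in young adults. Its rise from E15.5 to E19.5 was 0.89 (adjusted p = 0.0013). Spi1, the gene of the factor PU.1 that drives myeloid fate, rose from 4.25 ± 0.10 to 5.26 ± 0.14 (difference 1.01, adjusted p = 7.82e-06). Lst1, a leukocyte membrane protein gene, had already reached 5.21 ± 0.07 at E19.5 and was 5.31 ± 0.19 in young adults. Cx3cr1, the fractalkine receptor of monocytes and resident macrophages, differed in another way. Its mean was 4.45 ± 0.15 at E10.5, 5.25 ± 0.23 at E14.5 and 4.96 ± 0.33 in young adults, and young adult minus E19.5 was -0.15 (adjusted p = 0.486).

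Cd68, a lysosomal membrane glycoprotein widely used to stain macrophages, and Aif1, an actin-binding protein also known as Iba1, never had a mean above 5. Cd68 moved between 3.06 and 3.53 in embryos and read 4.44 ± 0.31 in young adults. Aif1 stayed at 2.26 to 2.73 and then read 4.27 (male), 5.11 (mixed) and 5.22 (female), which put it 2.61 above E10.5 (SE 0.26, adjusted p = 4.41e-10). The size of that difference would pass the strict rule, and the expression limit kept Aif1 out.

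Genes of Fc receptors and of the adaptors that carry their activating motif (ITAM) rose as well. All 4 were higher in young adults than at E10.5 by the lenient rule and 3 by the strict rule, with a median difference of 2.35, and 3 were higher than at E19.5, with a median of 1.55. Tyrobp, the adaptor of many activating receptors, started at 3.39 ± 0.13 on E10.5, stood at 4.60 ± 0.27 on E19.5 and measured 6.64 ± 0.35 in the young adult. That rise was 3.25 from E10.5 (SE 0.20, adjusted p = 6.32e-15) and 2.04 from E19.5 (adjusted p = 1.36e-09). Fcer1g, the common gamma chain of Fc receptors, rose by 2.02 over E10.5 and Fcgr3, the activating low-affinity IgG receptor, by 2.68. Fcgr2b, the inhibitory IgG receptor, which liver and other endothelia also carry, went from 5.73 ± 0.13 at E10.5 to 6.63 ± 0.09 in young adults, a difference of 0.89 (adjusted p = 1.79e-05). Its 4 other probe sets, looked at after their values were seen, gave 3.41 (1.92 to 5.33, adjusted p = 6.52e-14), 1.41, 1.27 and 0.59, so that the probe sets disagree on how far this gene moved. By the chosen set Fcgr2b stood at 6.45 on E19.5. From that day to young adult the 4 others gave 2.57, 0.89, 0.52 and 0.38 in the same order. All 4 passed the lenient rule there, and the first passed the strict rule.

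Both members of the phagocyte oxidase, the complex that makes superoxide, passed the strict rule against E10.5. Cybb, its membrane subunit, started at 2.71 ± 0.16 on E10.5, stood at 3.33 ± 0.30 on E19.5 and reached 5.21 ± 0.75 in the young adult, where the male sample read 4.34 and the other two 5.59 and 5.69. Ncf1, a cytosolic subunit, had climbed to 4.60 ± 0.30 by E19.5 and reached 5.50 ± 0.19.

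The beta2 integrins, the adhesion receptors of leukocytes, were low throughout. Itgb2, the common beta chain, went from 3.04 ± 0.26 at E10.5 to 4.45 ± 0.28 in young adults and was the 1 of 3 with a mean above 5, in old adults. Itgam stayed at 2.12 to 2.36 in embryos and 2.72 ± 0.04 in young adults, and Itgax at 3.08 to 3.87 in every stage. All 3 passed the lenient rule against E10.5, with differences of 1.41, 0.60 and 0.63. Against E19.5 Itgb2 (0.77) and Itgam (0.36) passed and Itgax (0.01) did not.

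Of the 9 genes carried by all leukocytes 8 were higher in young adults than at E10.5 by the lenient rule and 3 by the strict rule, with a median difference of 1.39, and 6 were higher than at E19.5, with a median of 0.80. Laptm5, a lysosomal membrane protein of blood cells, measured 4.11, 4.08 and 4.31 at E10.5 and 6.30 (female), 5.89 (male) and 5.40 (mixed) at E19.5. The young adult samples averaged 7.93 ± 0.04, well clear of these, 3.76 above E10.5 (SE 0.21, adjusted p = 8.02e-16) and 2.06 above E19.5 (adjusted p = 3.61e-09). These sizes depended on the probe set. Among the 4 others of Laptm5, the 3 with a stage mean above 5 gave 2.02, 1.20 and 0.55 from E10.5. From E19.5 they gave 1.43, 0.40 (adjusted p = 0.123) and -0.08 (adjusted p = 0.831), so the chosen one alone passed the strict rule there. Coro1a, an actin regulator of leukocytes, rose by 1.71 from E10.5 (3.87 ± 0.41) to E19.5 (5.58 ± 0.09, adjusted p = 1.13e-07) and read 5.89 ± 0.20 in young adults, where the further 0.31 did not pass (adjusted p = 0.297). Ptprc, the phosphatase CD45 that defines white blood cells, rose from 2.32 ± 0.05 (E10.5) to 3.85 ± 0.56 (E19.5) and on to 4.89 ± 0.75 in the young adult. Cd53, a tetraspanin, showed no such course: it lay at 3.65 to 3.94 in all embryonic stages and at 5.30 ± 0.48 in young adults. Cd52, a short glycoprotein anchored by lipid, rose by 1.98 over E10.5 and Lcp1, the actin bundler L-plastin, by 0.71. The other Lcp1 probe set gave 0.25 and did not pass (adjusted p = 0.533). Cd48, an adhesion protein of lymphocytes and myeloid cells, and Cytip, which binds the integrin regulator cytohesin, never passed a mean of 5 by their chosen probe sets. Another Cytip probe set reached 5.69 in old adults and gave 0.73 from E10.5 to young adult (adjusted p = 0.038). The remaining one gave 0.43 (adjusted p = 0.0912). Cd48 lay at 2.17 to 2.60 in embryos and 3.31 ± 0.48 in young adults, Cytip at 3.38 to 3.59 and 3.77 ± 0.06.

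Plek, encoding pleckstrin, a major substrate of protein kinase C in platelets and leukocytes, had its lowest embryonic mean in the middle of the series. It averaged 4.80 ± 0.10 on E10.5, 3.75 ± 0.09 by E15.5 and 4.23 ± 0.71 by E19.5. At E18.5 it read 6.63 in the female, 4.96 in the male and 4.27 in the mixed sample, the widest spread of the gene in the embryo. The same female sample had the highest summed level of 5 platelet genes at E18.5, at 8.58 beside 8.44 and 7.90 (log2 of the sum), and their part in the Plek value was not tested. Young adults averaged 6.11 ± 0.48.

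The promoters of 4 members are shown, those with the largest E10.5 to young adult difference among the members that hold a searched motif. The motifs were GAGGAA and the longer AGAGGAAG that contains it, both drawn from sites of the factor PU.1, and TATAAA, on either strand over 250 bases before and 50 after the start. RefSeq (GRCm38.p6) lists 30 promoters for 26 of the 35 members. GAGGAA or its reverse TTCCTC occurred in 14 of the 30 (46.7%) and in 28.3% of all 32851 promoters, AGAGGAAG or CTTCCTCT in 4 (13.3%) and 4.55%, and TATAAA or TTTATA in 5 (16.7%) and 13.6%. The stretches below run 5′ to 3′ along the gene and have the matches in capitals. They are chr2:14229214-14229404 on the plus strand for Mrc1, chr4:130913078-130913303 on the plus strand for Laptm5, chr3:95526536-95526652 on the plus strand for Ctss and chr1:171059395-171059514 on the minus strand for Fcgr3.
Mrc1: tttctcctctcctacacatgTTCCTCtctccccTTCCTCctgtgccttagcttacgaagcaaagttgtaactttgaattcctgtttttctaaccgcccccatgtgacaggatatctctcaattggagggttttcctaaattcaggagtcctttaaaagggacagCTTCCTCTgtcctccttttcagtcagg
Laptm5: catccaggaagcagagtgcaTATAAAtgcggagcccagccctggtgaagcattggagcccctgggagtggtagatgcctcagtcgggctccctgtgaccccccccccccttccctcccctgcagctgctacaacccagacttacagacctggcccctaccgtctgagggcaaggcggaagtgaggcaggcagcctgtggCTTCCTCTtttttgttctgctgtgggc
Ctss: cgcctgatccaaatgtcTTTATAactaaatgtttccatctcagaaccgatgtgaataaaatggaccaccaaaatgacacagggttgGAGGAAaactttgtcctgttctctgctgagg
Fcgr3: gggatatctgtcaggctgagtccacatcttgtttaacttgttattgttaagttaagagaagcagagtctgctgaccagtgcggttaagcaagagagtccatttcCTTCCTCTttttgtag
The longer motif began 36 bases before the start in Mrc1, 39 in Laptm5 and 16 in one of the 2 listed promoters of Fcgr3, each time in its reverse form. Ctss had the short form at 164 bases before the start and a TATAAA match, as did Laptm5. These are matches of letters, and no binding was measured.

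The rise within the embryo was mostly early for Csf1r and Ctss and late for calprotectin. From E10.5 to E12.5, 6 members were higher by the lenient rule, beside 2.08% of all genes: Csf1r (2.38), Mrc1 (1.72), Ctss (1.52), Coro1a (0.93), Ly86 (0.77) and Ncf1 (0.69). From E12.5 to E15.5 these were 2, beside 9.65%, Laptm5 (0.91) and Csf1r (0.88). From E15.5 to E19.5 they were 5, beside 4.44%: S100a9 (2.71), S100a8 (2.29), Mrc1 (1.19), Cd14 (0.89) and Lst1 (0.57). The single day from E10.5 to E11.5 changed 2 members, beside 2.67% of all genes, Csf1r by 1.15 and Ctss by 1.00. The Ctss call on that day was lost when any of 4 of the 6 arrays was left out.

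Between E10.5 and E19.5 the strict rule called 3 members higher, beside 1.00% of all genes, namely S100a9, Csf1r and Ctss, and the lenient rule 24, beside 26.2%. Without the E19.5 mixed sample 5 were called, with Mrc1 and S100a8 added, and without the E19.5 female or male sample S100a9 was not called. The lowest differences were those of Lyz1 at -0.58, Plek at -0.58 and Cd53 at -0.08, none of which passed. In a fit of level against embryonic day over the 30 arrays, 29 of 35 members rose, beside 43.9% of all genes, and Lyz1 fell, beside 27.3%. The steepest were S100a9 at 0.36 per day (SE 0.04, adjusted p = 3.62e-10), S100a8 at 0.29 (adjusted p = 9.92e-08) and Csf1r at 0.26 (adjusted p = 2.92e-05). With the level of the hybridization controls as a covariate 17 members rose, beside 13.3% of all genes. Csf1r was not one of them (adjusted p = 0.182), and neither was the fall of Lyz1 called (adjusted p = 0.561). The array titles carry a prefix from the E16.5 female sample on, and the sources used here do not say whether it marks a batch. Within the 20 arrays without the prefix 24 members rose, beside 35.3% of all genes, and 2 fell, beside 24.5%, Lyz1 (adjusted p = 0.0023) and Plek (-0.13 per day, adjusted p = 0.0012). With the control covariate on all 30 arrays Plek rose instead (0.13 per day, adjusted p = 0.0407), so its direction turned with the fit. Within the 10 embryonic arrays with the prefix, which span few days, limma called 0 members and 114 of all genes. An unadjusted p under 0.05 was reached by 11 members, and the share of all genes at that limit was not counted.

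Calprotectin, the calcium-binding pair S100a8 and S100a9 that neutrophils hold in bulk and monocytes in part, peaked just before birth. S100a9 averaged 2.53 ± 0.09 at E10.5 and 3.36 ± 0.05 at E15.5, and at E16.5 all 3 samples (4.42 male, 3.81 mixed, 4.53 female) lay above those of E15.5. At E17.5 the male sample read 5.56 and the others 3.72 and 4.06. On E19.5 it measured 6.89 (female), 6.70 (male) and 4.62 (mixed). The mixed sample stood well below the other two. S100a8 ran beside it, with 6.54, 6.50 and 4.11 on E19.5. In young adults S100a9 measured 3.37, 3.37 and 3.21 and S100a8 2.97 (male), 3.60 (mixed) and 3.04 (female), below every E19.5 sample. The fall from E19.5 to young adult was -2.76 for S100a9 (SE 0.47, adjusted p = 3.20e-05) and -2.51 for S100a8 (SE 0.53, adjusted p = 0.000402). The rise from E10.5 to E19.5 was 3.54 (adjusted p = 4.90e-07) and 3.08 (adjusted p = 1.93e-05).

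Other neutrophil genes were read beside this peak. Of 9 further granule and receptor genes (among them Ngp, Camp, Ltf, Mpo and Elane), 0 had a stage mean above 5 at any stage. Ltf (3.13) and Mmp8 (3.07) had their highest stage mean at E19.5 too. Their summed level ran from 5.92 to 6.10 on E10.5, from 6.35 to 6.69 on E19.5 and from 6.73 to 6.86 in the young adult, a sum of values that all lie below the expression limit. Within E19.5 it was highest in the mixed sample, the one lowest in calprotectin. From E19.5 to young adult 3 of the 9 rose by the lenient rule, beside 14.7% of all genes, and 0 fell, beside 17.0%.

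**Figure D4:**
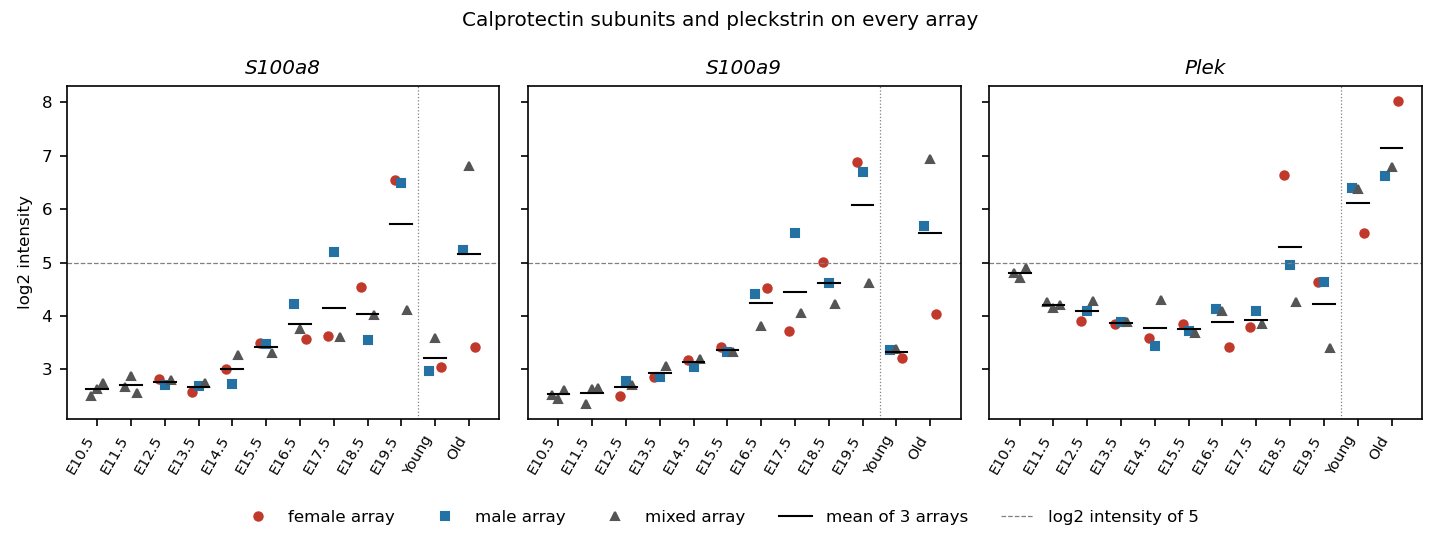
Log2 intensity of S100a8, S100a9 and Plek on each of the 36 arrays by stage, with the sex label as the symbol and the mean of 3 arrays as a bar. The dashed line marks the expression limit of 5. Both calprotectin genes climb to E19.5, where the mixed sample lies at 4.11 and 4.62, drop in young adults and spread widely in old adults, while Plek has 1 high sample at E18.5.

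The B cell receptor was represented by Cd79b, one of its signalling chains, and Ighm, the IgM heavy chain. Cd79b never passed a mean of 5 and moved between 2.52 and 2.96 in embryos, with 3.04 ± 0.42 in young and 3.54 ± 0.54 in old adults. Ighm stood at 5.00 ± 0.10 on E10.5, 5.66 ± 0.14 on E19.5 and 5.61 ± 0.06 in the young adult. Against E10.5 both passed the lenient rule (0.52 and 0.61), and against E19.5 neither did (0.31 and -0.05).

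With age, the calls fell mostly on genes carried by all leukocytes and on calprotectin, and 1 of 13 macrophage genes was called. By the lenient rule 10 members rose, beside 4.46% of all genes, and 0 fell, beside 3.13%. By the strict rule limma called 0 members. An unadjusted p under 0.05 was reached by 18, but the share of all genes at that limit was not counted. The difference was positive for 29 of 35 members with a median of 0.36, against -0.00066 over all genes. By role, 5 of 9 all-leukocyte genes rose (median 0.97), both calprotectin genes (2.09), 1 of 13 macrophage genes (0.17), 1 of 3 integrins (0.14), 1 of 2 oxidase genes (0.54), and none of the 4 Fc receptor genes (0.47) or the 2 B cell receptor genes (0.25). Whether role groups differed from one another was not tested.

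Ptprc had the clearest rise with age among the all-leukocyte genes by the chosen probe sets. It measured 5.65 (male), 4.87 (mixed) and 4.15 (female) in young and 6.07, 7.35 and 7.25 in old adults. The groups did not overlap, though the male samples differed by far less than the female ones. The difference was 2.00 (SE 0.32, adjusted p = 0.000287). The other Ptprc probe set, with no stage mean above 2.84, gave 0.43 and did not pass (adjusted p = 0.18). Cd52 read 4.54, 4.64 and 3.98 in young and 4.93, 6.08 and 6.35 in old adults in the same order, a rise of 1.40 (SE 0.23, adjusted p = 0.000393). Coro1a read 5.99, 6.02 and 5.66, then 6.53, 7.84 and 6.81, a rise of 1.17 (adjusted p = 0.000942). In both genes the old male sample was the lowest of the old ones and still above every young one. The other probe sets of Coro1a gave 0.95 (adjusted p = 0.0053) and 0.10 (adjusted p = 0.732).

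Cd14 was the macrophage gene that rose, from 4.54, 4.47 and 5.19 to 6.32, 5.59 and 5.86 (1.19, SE 0.18, adjusted p = 0.000148). Here the old male sample was the highest. Lcp1 (0.97, adjusted p = 0.0128), Cd53 (0.87, adjusted p = 0.009), Itgb2 (0.80, adjusted p = 0.0147) and Cybb (0.98, adjusted p = 0.0293) also passed, but their young and old samples overlapped. The other Lcp1 probe set gave 1.06 and did not pass (adjusted p = 0.063). Neither did the other Cd53 set (0.31, adjusted p = 0.144) nor those of Cybb (0.19 and -0.22, adjusted p = 0.587 and 0.429), all under 5 at every stage. For Cybb the old male sample, at 5.28, lay below the young mixed and female samples, at 5.59 and 5.69.

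S100a9 had the largest difference with age of the 35 members. Old adults measured 5.68 (male), 6.95 (mixed) and 4.03 (female), a rise of 2.24 (SE 0.47, adjusted p = 0.004). S100a8 measured 5.23, 6.81 and 3.42, a rise of 1.95 (SE 0.53, adjusted p = 0.0215), and its old female sample lay below the highest young one. The summed level of the 9 other neutrophil genes was 6.60 to 6.82 in old and 6.73 to 6.86 in young adults. Over the 6 adult samples the ranges were widest for S100a8 (3.84), S100a9 (3.74), Ptprc (3.21), Plek (2.47) and Cybb (2.45). Plek read 6.40, 6.38 and 5.55 in young and 6.62, 6.79 and 8.03 in old adults, without overlap, but its difference of 1.04 did not pass (adjusted p = 0.095).

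Apart from Cd14, the members of the macrophage role group gave no call with age by their chosen probe sets. The other Cx3cr1 probe set, with no stage mean above 3.27, was lower in old adults (-0.66, adjusted p = 0.0078). Those of Csf1r (0.06 and -0.15) and Lyz1 (0.21) did not pass. Ly86 and Ctss had their highest stage mean in old adults, at 6.48 and 7.26, without passing. Csf1r read 8.97, 9.21 and 9.25 in young and 9.45, 9.14 and 9.95 in old adults (0.36, SE 0.19, adjusted p = 0.250). Mrc1 gave -0.13 (SE 0.34, adjusted p = 0.861), Cd163 -0.23 (SE 0.24, adjusted p = 0.597) and Aif1 -0.12 (SE 0.26, adjusted p = 0.829). Lyz1 and Lyz2 gave 0.31 and 0.17. In Mrc1, Cd163 and Aif1 the old mixed sample was the lowest of the 6, at 6.88, 5.41 and 3.68, although the same sample was the highest of the 6 in Ptprc, Coro1a and both calprotectin genes. These misses do not show that the levels were alike.

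The 3 old samples lay above all 3 young ones for 8 members, Ptprc, Cd52, Coro1a, Plek, Cd14, Tyrobp, Fcer1g and S100a9, and for 10.8% of all genes. They lay below them for Itgam alone, which read 2.39 to 2.76 in the 6 adult samples. The share of all genes with the old samples below was not counted. Of the 35 members, 16 had the highest of the 6 adult values in the old female sample, 14 in the old mixed and 3 in the old male. Without the old mixed sample 6 members were called, namely Ptprc, Cd52, Coro1a, Cd14, S100a9 and Fcgr3. The first 5 were called whichever of the 6 samples was left out. With the sex label as a block on the 6 adult arrays, limma called 0 members and 2 of all genes, and 29 members kept a positive difference. An unadjusted p under 0.05 was reached by 15, again without a count over all genes.

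**Figure D5:**
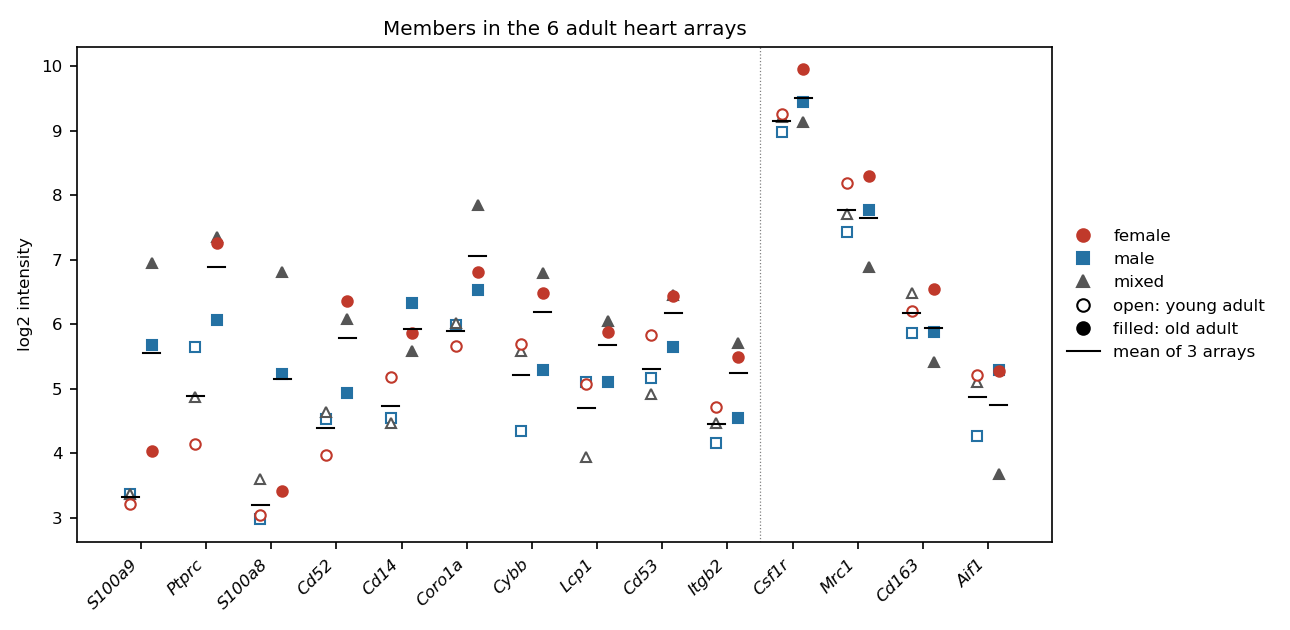
Log2 intensity in the 6 adult samples (open symbols young, filled symbols old, sex label as the shape, bars for the mean of 3) for the 10 members called higher in old adults, left of the dotted line, and for Csf1r, Mrc1, Cd163 and Aif1, right of it. Young and old do not overlap in S100a9, Ptprc, Cd52, Cd14 and Coro1a, and the old mixed sample is the lowest in the last 3 genes.

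Markers of blood and endothelial cells were read beside the adult samples. Their counts with age stand beside the 4.46% of all genes that rose and the 3.13% that fell by the lenient rule. Among the summed levels below, only that of the endothelial genes separated all old from all young samples. Of 7 B cell genes 1 had a stage mean above 5 and 1 rose with age. Their summed level was 6.28 to 6.61 in young adults and 6.31 (male), 7.92 (mixed) and 8.52 (female) in old adults. Ms4a1, the gene of the B cell protein CD20, read 2.47 to 2.68 in young and 2.80, 6.71 and 4.64 in old adults, and Igj, the joining chain of secreted antibodies, read 7.93 in the old female sample alone and 2.18 to 2.41 in the other 5. Of 10 T and NK cell genes 2 had a stage mean above 5, 0 rose and 1 fell by the lenient rule with age. Their summed level was 7.47 to 7.61 in young and 7.33 to 7.64 in old adults. The 9 erythroid genes summed to 9.19 in the old mixed sample and to 7.14 to 7.68 in the other 5, and the 5 platelet genes to 8.85 to 9.80 in young and 9.23 (male), 10.04 (mixed) and 10.45 (female) in old adults. The 5 endothelial genes (Pecam1, Cdh5, Kdr, Tek and Emcn) summed to 9.82 to 10.03 in young and to 10.57 (male), 11.09 (mixed) and 10.31 (female) in old adults, without overlap, and 2 of them rose by the lenient rule with age, Pecam1 by 1.19 (adjusted p = 0.014) and Kdr by 0.81 (adjusted p = 0.0072). Of 5 fibroblast genes Col1a1 fell by 1.53 with age (adjusted p = 3.68e-05) and none rose. The part of these cells in the rise of Ptprc, Cd52 and Coro1a was not tested.

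The chosen Ighm probe set did not differ with age (0.01, adjusted p = 0.986), but others passed the lenient rule, in both directions. They gave 2.33, 1.52 (adjusted p = 0.0335), -0.59 (adjusted p = 0.027) and -0.605 (adjusted p = 0.0249). The sets that fell had no stage mean above 3.94. The set that rose most read 5.17, 6.28 and 5.75 in young and 5.80 (male), 8.24 (mixed) and 10.16 (female) in old adults (SE 0.50, adjusted p = 0.0045). In these samples it followed the order of the summed B cell genes. Another Cytip probe set likewise rose by 2.30 (SE 0.31, adjusted p = 3.04e-05) where the chosen one gave 0.36 (adjusted p = 0.228). These other probe sets were picked after their values were seen. Of all 35 other probe sets of the members, 26 were higher in young adults than at E10.5 by the lenient rule, beside 35.9% of all probe sets, 0 were lower, and 12 had a stage mean above 5.

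No member passed the test between male and female hearts. Over 9 male and female pairs (E13.5 and later, old adult included) with the stage as a block, limma called 0 of 35 members, beside 0.0435% of all genes, and the smallest adjusted p of a member was 0.268. At an unadjusted p under 0.05 there were 5, all lower in males: Mrc1 (male minus female -0.47), Cd163 (-0.40), Cybb (-0.33), Lyz1 (-0.32) and Ctss (-0.22). The share of all genes at that unadjusted limit was not counted. The difference was positive for 10 of 35 members, with a median of -0.077 against 0.0054 over all genes. The failure to pass does not show that the sexes were alike.

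Other genes of the same cells gave the following picture. Of 14 further macrophage genes 14 were higher in young adults than at E10.5 by the lenient rule and 4 by the strict rule, with a median difference of 1.29. These 4 were Lyve1 (2.64), a hyaluronan receptor also on lymphatic vessels, Mpeg1 (2.55), a pore-forming protein of macrophages, Folr2 (2.50), a folate receptor, and Adgre1 (2.41), which encodes a classical surface antigen of mouse macrophages. The lowest was Mertk, a receptor for dying cells, at 0.46. Adgre1 averaged 4.56 on E10.5, 5.71 on E19.5 and 6.97 in the young adult. From E19.5 to young adult 10 of the 14 were higher, with a median of 0.78. With age 1 rose, beside 4.46% of all genes, and 1 fell, beside 3.13%, and the median was -0.26.

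Csf1, the main ligand of the receptor encoded by Csf1r, rose by 1.40 from E10.5 (6.46) to young adult (7.86, adjusted p = 1.5e-08), and Csf2ra, a chain of the receptor for another colony stimulating factor, fell by 0.54 (adjusted p = 0.0176). Of the 5 genes of this axis 4 were higher and 1 lower. Of 11 leukocyte transcription factors 7 were higher and 1 lower: Maf rose most, by 2.51 (5.76 to 8.27, adjusted p = 2.59e-11), and Myb, active in blood progenitors, was the 1 that fell, by 0.51 (adjusted p = 0.0097). Of 10 genes that signal from ITAM receptors 8 were higher, from Inpp5d, a lipid phosphatase (1.49), to Plcg2, a phospholipase (0.42). Of 5 integrin partners 2 rose, Itgb7 (0.99) and Selplg (0.50), close to the 38.6% of all genes, and Itga4, the alpha4 chain also used outside blood, fell by 2.06 (6.84 to 4.77, adjusted p = 4.62e-11).

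Markers of other cells that tissue samples can hold were read beside the members, and their counts stand beside the 38.6% of all genes that rose from E10.5 to young adult by the lenient rule. Of 7 adipocyte genes all rose from E10.5 to young adult, led by Cfd (4.69) and Adipoq (2.83). Their summed level was 7.69 to 8.08 on E10.5, 6.91 to 7.62 on E19.5, 9.22 (male) to 11.22 (female) in young and 8.21 to 10.88 in old adults. Of 5 platelet genes all rose, most in Ppbp (2.27) and least in Itga2b (0.54). Of 10 T and NK cell genes 9 rose, from Cd247 (1.20) to Klrd1 (0.36), and 2 had a stage mean above 5. Of 7 B cell genes 4 rose, from Cd22 (0.89) to Pax5 (0.53). Of 6 mast cell genes 5 rose, from Cma1 (1.01) to Tpsb2 (0.53), and of 9 neutrophil genes 7 rose, from Ngp (1.28) to Mpo (0.37), but none of either list had a stage mean above 5. Of 7 thymus and lung genes all rose, from Sftpb (0.88) to Rag1 (0.35), and Sftpb was the 1 above 5. Of 9 erythroid genes 2 rose, Hba-a1 (0.62) and Epb42 (0.56), and 6 fell, most the embryonic globin Hbb-y (-10.51). Of 5 endothelial genes 4 rose, from Pecam1 (1.88) to Cdh5 (1.09), with a mean level of 6.41 at E10.5 and 7.39 in young adults. Of 5 fibroblast genes 2 rose, Dcn (5.44) and Col1a2 (1.73), and 2 fell, Pdgfra (-0.99) and Tcf21 (-1.37). The part of these cells in the differences of the members was not tested.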

How the data were processed

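Total RNA of mouse hearts was hybridised to Affymetrix whole-genome mouse arrays, 3 for each of 12 stages. The authors deposited log2 intensities made by robust multi-array average (RMA: background subtraction, quantile normalization, summary per probe set). The submitters' processing notes name RMA, Affymetrix Expression Console and Partek 6.6. The quantile step brings the arrays toward a common distribution, so a change shared by most genes can be hidden. The deposited arrays still differed. A further quantile step moved the median difference between young adult and E10.5 hearts over all genes from 0.21 to 0.11. Values were used as deposited, and 0 columns of values per sample were left unused. RefSeq knew 18342 of the 20701 gene IDs.

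Stages were compared in R 4.3.3 with limma 3.58.1. A single model of 12 stage means was fitted to the 36 arrays and every probe set, the variances were moderated (6.96 prior degrees of freedom), and p-values were adjusted over every probe set of a comparison by the Benjamini-Hochberg method. Counts over all genes use the probe set with the highest mean per gene ID. Levels against embryonic day were fitted on 30 arrays, and male against female on 9 pairs with stage as a block. The self-made procedures were tested on simulated data. In the stage comparisons the p-values rest on the spread between samples within a stage, pooled over the 12 stages. A stage with a wide spread of its own, such as E19.5 for S100a8 and S100a9, is not treated apart. From E12.5 on that spread includes differences between the sexes. In the fit over days it is the spread around the line, and between the sexes that of the pairs.

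Members, role groups and further gene lists were chosen with earlier results of these data known. Values per stage or array are given for the highest member of each role group, the 3 highest and 3 lowest differences of the main comparisons, the 5 largest differences and 5 widest ranges in adults, members never above 5, and further members that help to describe a role group. Of each other list the called genes with the highest and lowest difference are named, and 1 of these lists is not reported here. The Lyz promoters, the endothelial and fibroblast values and the Ms4a1 and Igj values were chosen after being seen. So were the other probe sets of Ighm, Cytip, Fcgr2b, Csf1r, Laptm5, Lcp1, Lyz1, Ptprc, Cd53, Cybb, Coro1a and Cx3cr1. The planned protein sequences were not used here. Alternatives concerned scaling, the limits of the rules, the expression limit before the model, the mean over probe sets, blocks by sex label or replicate number, and single arrays or stages left out.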

Additional observations from a re-analysis of the deposited data

How the results depend on the processing

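Results with no other mention kept their direction and stayed within 1.5 times the reported count, and no difference of a member in the 4 main comparisons changed its sign while called. The following are counts of members called higher in young adults. A log2 limit of 1 gave 19, 18, 15, 15, 15, 14, 14, 14 and 13 from E11.5 to E19.5, and an adjusted p under 0.05 alone gave 32, 28, 28, 27, 27, 26, 26, 23, 23 and 23 from E10.5 to E19.5. Averaging all probe sets of a gene gave 9 at E10.5, 6 at E12.5 and 4 at E13.5. Centring each array on the probe sets above 5 gave 13 for E13.5, 13 for E16.5 and 11 for E17.5. The sex label as a block gave 3 at E19.5 and 0 for old against young adults. For E19.5 against E10.5, centring gave 7, a log2 limit of 1 gave 7 and an adjusted p under 0.05 alone 24, and for E12.5 to E15.5 centring gave 5. For E11.5 against E10.5, quantile renormalization gave 1 and averaging of probe sets 1. The cause of these shifts was not tested, apart from the wider limits themselves. The rise over embryonic days was called for 0 members in the 10 arrays with a title prefix and 17 with the hybridization controls as a covariate.

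Leaving out single arrays gave 13 to 16 members for E10.5 against young adult, 3 to 8 for E19.5 against young adult, 2 to 5 for E19.5 against E10.5, 1 to 3 for E11.5 against E10.5 and 6 to 13 for old against young adult. Leaving out a stage gave 21 to 29 rising members, and leaving out a pair gave 0 between the sexes. E10.5 and E11.5 share replicate numbers in the labels. A replicate block on their 6 arrays called 1 member, and a fit of the 6 arrays without it, added after seeing the data, also 1. Same-numbered samples correlated at 0.22, -0.25 and 0.17 in their deviations from the stage means, so the numbers were not taken as pairs.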
